A study of Zea mays with 4 samples.

Results

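The 4 arrays of a maize cell wall study differed within each inbred line. Arrays were matched across lines by their own correlations, so differences of like direction in both lines were partly built into the arrangement. Total RNA of aerial material at flower development, from soil-grown plants of the inbred lines Cm489 and F98902, was hybridised to 4 Affymetrix maize arrays, 2 per line. The labels name neither the organ nor the meaning of the plant code in each title, so separate plants, and separate positions on a plant, are not established. No treatment, transgene or mutation is given for either line. All 4 of the 4 arrays of the series were used: Cm489 replicate 2 and F98902 replicate 1 are called side A, and Cm489 replicate 1 and F98902 replicate 2 side B.

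The sides were selected on the correlations between these same arrays over all probe sets. The values below therefore describe 4 samples, and no test between the sides was made. Each side holds 1 array of each line, so every difference is given within Cm489 (replicate 2 minus replicate 1) and within F98902 (replicate 1 minus replicate 2). Their mean is side A minus side B with the line as block. The gap between both lines is the only spread that the design gives. It is not a clean measure of error, since the choice of sides can narrow it and true differences between the lines enter it. All values are deposited log2 signals, in which a difference of 1 is a doubling. A value under 4 is taken to give no level, and a difference that involves one is given as a lower bound taken against 4. Counts of differences past 1 use the deposited values, those under 4 included, so a counted gene can have a bound under 1.

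A growing grass shoot holds a gradient of cell age. Cells divide in meristems and at the base of growing zones, replicating DNA with origin recognition complexes and the PCNA clamp. They then expand, helped by expansins that loosen the wall and aquaporins that pass water, and green cells build chloroplasts with light-harvesting proteins. Vascular and supporting cells last lay down secondary walls made by a dedicated set of cellulose synthases and stiffened with lignin. The question here is where genes of these stages stood on each array.

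Of 11242 probe sets with a log2 value of at least 4 on at least 2 arrays, called tested here though no test was run, 1030 were higher on side A by at least 1 in both lines (9.16%) and 995 were higher on side B (8.85%). Those that passed 1 in each line but ran opposite ways numbered 130 (1.16%) with replicate 2 higher in both lines and 65 (0.578%) with replicate 1 higher in both. Within Cm489 taken alone 1751 (15.6%) passed 1 towards side A and 1950 (17.3%) towards side B, and within F98902 alone 2080 (18.5%) and 2221 (19.8%). The 1030 were 58.8% of the side A list of Cm489 and 49.5% of that of F98902. Of the 1030, 244 had a side B array under 4, and of the 995, 210 had a side A array under 4. The within-line differences correlated at r = 0.558 over the 11242 probe sets, which share their arrays, a likeness that goes with the array correlations the sides were chosen by. Whatever their size, they had the same sign for 3638 probe sets towards side A and 4594 towards side B, and opposite signs for 3010.

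The side accounted for 37.4% of the summed squared differences among the arrays, the line for 51.8% and the remaining contrast, the replicate number, for 10.8%. The side was the largest of these 3 contrasts for 5678 probe sets (50.5%), the line for 4275 and the replicate number for 1289. Cm489 replicate 1 and F98902 replicate 2, both of side B, correlated at 0.945 over all probe sets, above the 0.939 between the arrays of F98902 and below the 0.952 between those of Cm489. The side A arrays of both lines correlated at 0.918. Median signals of the 4 arrays lay between 6.99 and 7.11, and the median side A minus side B difference over tested probe sets was -0.10.

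**Figure D1:**
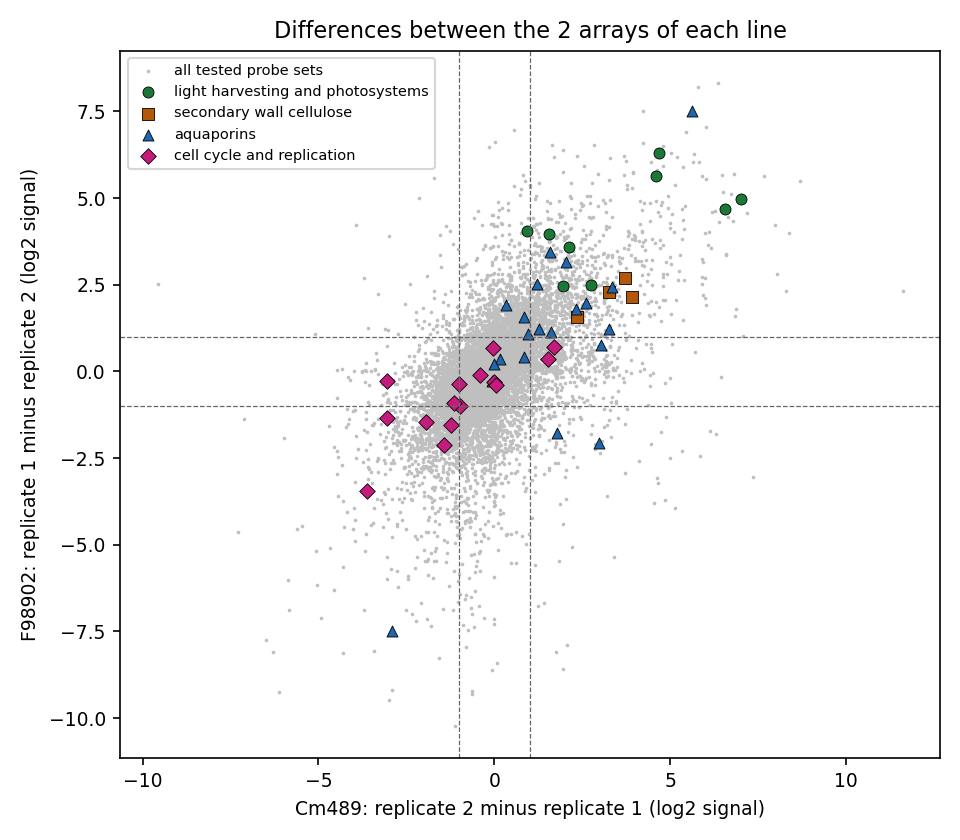
Each point is a probe set or gene. The horizontal axis gives Cm489 replicate 2 minus replicate 1 and the vertical axis F98902 replicate 1 minus replicate 2, both in log2 signal. Grey points are the 11242 tested probe sets, coloured points are genes of 4 lists and dashed lines mark differences of 1. All 9 light-harvesting and photosystem genes and all 4 secondary wall cellulose genes lie above 0 on both axes, and the origin recognition genes lie below 0 on both.

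Annotated genes were 811 of what was tested, and among these 109 (13.4%) were higher on side A and 58 (7.15%) higher on side B by at least 1 in both lines. Differences of either size had the same sign in both lines for 315 of the 811 towards side A and 279 towards side B, and opposite signs for 217. Of the probe sets counted in both lines, 906 on side A and 929 on side B were unnamed here. The gene groups below therefore describe the small annotated share of the array.

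Photosynthesis genes stood together on side A. All 9 tested genes of light harvesting and the photosystems were higher on side A in both lines, 8 of them by at least 1 in each, against 13.4% of named genes. Their median difference was 2.76 in Cm489 and 4.05 in F98902 (2.86 for both, or 5.12 with every probe set of the list), while the median over all tested probe sets was -0.11 and -0.05. Cab-m7, a chlorophyll a/b binding protein gene, was at 13.87 and 14.69 on the side A arrays of Cm489 and F98902 and at 6.86 and 9.71 on their side B arrays. It differed by 7.01 in Cm489 and 4.97 in F98902, and the sides did not overlap. Both side A arrays lay above both side B arrays for 21.6% of tested probe sets. The same held for 101 of the 109 named genes past 1 towards side A.

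The gene lhcb6 (LOC542321), for the minor antenna protein CP24 of photosystem II, was at 12.82 and 13.62 on side A and 6.26 and 8.94 on side B. Its 3 tested probe sets gave side A minus side B differences from 5.24 to 5.85. The antenna gene lhcb5 (LOC542716) was at 11.38 and 12.51 on side A and 6.71 and 6.21 on side B. Its close relative Lhcb5-2 (LOC542320) was at 11.45 and 13.20 against 6.86 and 7.56, and transcripts of such relatives can share probes. All 4 antenna genes were above 11 on both side A arrays and below 10 on both side B arrays, where Cab-m7 and lhcb6 were brighter in F98902 than in Cm489.

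Genes of the reaction centres and of photoprotection differed less. The gene psbs1 (LOC542126), for the protein that triggers heat dissipation of excess light, was 2.76 higher on side A in Cm489 and 2.50 in F98902. PSBQ1 (LOC542279), of the oxygen-evolving complex, differed by 1.56 and 3.95. The photosystem I subunit genes psan1 (LOC542605) and psah1 (LOC541685) differed by 2.12 and 3.60, and by 1.95 and 2.45. The exception to a difference of 1 in both lines was psad1 (LOC541791), another photosystem I subunit gene, which lay under 4 on Cm489 replicate 1 and differed by at least 0.76 in Cm489 and by 4.05 in F98902.

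Of 8 tested carbon fixation genes 3 were higher on side A by at least 1 in both lines and none on side B, with a median of 1.23. Among all named genes the shares were 13.4% and 7.15%. The gene ssu1 (LOC542212), for the small subunit of Rubisco, was at 12.95 and 12.79 on side A and 10.59 and 10.60 on side B, so that the lines nearly coincided on each side. Rubisco activase, rca1 (LOC541712), was at 7.24 and 9.73 on side A and at 3.99 and 4.19 on side B, at least 3.24 higher in Cm489 and 5.54 higher in F98902. The plastid glyceraldehyde-3-phosphate dehydrogenase gene gpa1 (LOC542368) differed by 2.91 and 2.47.

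Genes of malate and phosphoenolpyruvate metabolism, on which the C4 cycle rests, did not pass 1 in both lines. The malate dehydrogenase gene mdh6 (LOC542374) differed by 0.99 and 1.84. The phosphoenolpyruvate carboxylase gene pep4 (LOC542393) differed by 1.11 and 0.99, and the dikinase gene Ppdk1 (LOC542759) by 1.47 and 0.37. The 4 tested probe sets of Ppdk1 disagreed in direction, with mean differences from -0.17 to 0.93. The NADP-malic enzyme gene me3 (LOC542233) ran opposite ways, with 0.42 in Cm489 and -2.63 in F98902. The listed gene pep1 was too dim to be tested. Among the 15 named genes that differed most on side A was also trm1 (LOC542254), for an m-type thioredoxin of the chloroplast, which differed by 3.81 and 4.05.

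Secondary wall cellulose genes formed the other uniform group, with 4 of 4 tested genes higher on side A by at least 1 in both lines. The share of named genes was 13.4%, and the list medians were 3.49 in Cm489 and 2.23 in F98902. The cellulose synthase gene cesa10 (LOC542685) was at 13.04 and 12.67 on side A and 9.33 and 9.97 on side B. The gene cesa11 (LOC542139) was at 13.61 and 13.01 against 9.71 and 10.86, and CesA12 (LOC542514) at 13.85 and 13.68 against 10.59 and 11.38. For each of these 3 subunits of the secondary wall complex, the side A arrays of the lines lay closer to each other than to the side B array of their own line. The brittle stalk gene bk2 (LOC778435), for a COBRA-like protein needed for stalk strength, was at 13.21 and 11.67 against 10.86 and 10.10.

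Genes for both enzymes that close the monolignol pathway, 1 for each, stood in the same arrangement. BM1 (LOC542663), the cinnamyl alcohol dehydrogenase gene, was at 13.91 and 13.77 on side A and 11.27 and 11.41 on side B. The cinnamoyl-CoA reductase gene cncr1 (LOC542463), which acts just before it, was at 13.68 and 13.61 against 10.12 and 10.49, a difference of 3.56 in Cm489 and 3.12 in F98902. The 6 tested genes of the lignin list, which did not match cncr1, did not move together. BM1 alone of the 6 was higher on side A by at least 1 in both lines, against 13.4% of named genes. The list median was 0.01, or 0.47 with no filter on dim probe sets. The 4-coumarate:CoA ligase gene 4CL (LOC542166) differed by 0.63 and 1.48.

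The other listed genes stayed short of BM1 or stood the other way. The laccase gene LAC1 (LOC606456) differed by -1.30 and -0.28. The gene myb42 (LOC100101513), a repressor of lignin genes, differed by -0.38 and -1.47, and myb31 (LOC100037768), a related repressor, ran opposite ways in the lines. PAL1 (LOC542258), for the entry enzyme of the pathway, differed by 0.54 and 0.40. The list holds only those pathway genes that the platform annotation names and whose symbols it matched, so cncr1 is not in it. The listed gene ccr2 was too dim to be tested.

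**Figure D2:**
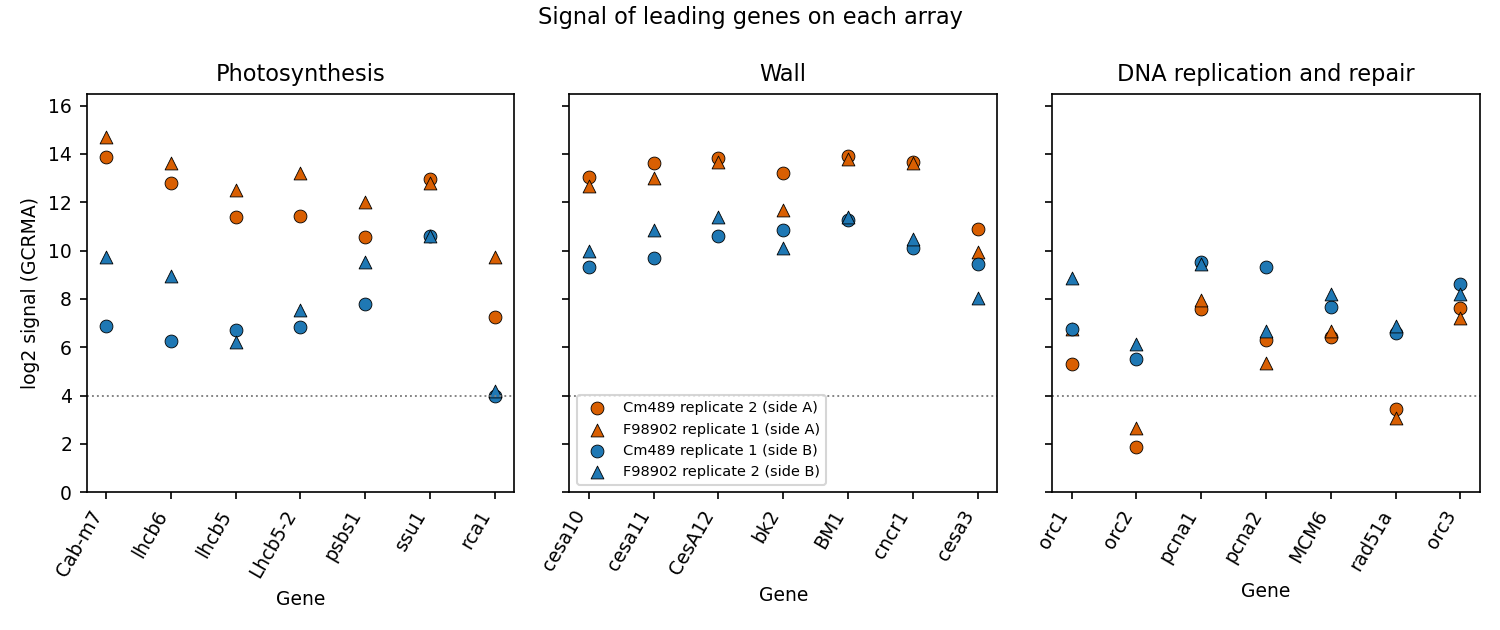
Log2 signal (vertical axis) of leading photosynthesis, wall and DNA replication or repair genes (horizontal axis) on each of the 4 arrays. Orange points are side A, blue points side B, circles Cm489 and triangles F98902, and the dotted line marks log2 4, under which a value gives no level. For BM1 the side A arrays sit at 13.91 and 13.77 and the side B arrays at 11.27 and 11.41, while orc2 lies under 4 on both side A arrays.

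Primary wall cellulose synthases were also higher on side A, by less. Of 9 tested genes 8 were higher on side A in both lines, against 315 of 811 named genes. By at least 1 in each line it was 2 of 9, against 13.4% of named genes, and the median was 1.03. The gene cesa3 (LOC542489) was at 10.91 and 9.95 on side A and 9.45 and 8.04 on side B, and cesa8 (LOC541806) differed by 1.09 and 1.15. The gene cesa6 (LOC541804) lay just outside the threshold, with differences of 0.99992 in Cm489 and 2.17 in F98902.

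Expansins ran both ways, and the list had no common direction. Of 11 tested genes of expansins and wall proteins, 2 were higher on side A and 1 on side B by at least 1 in both lines. Among all named genes those shares were 13.4% and 7.15%. Signs in the lines were opposite for 7 of the 11, against 217 of 811 named genes. The list median was 0.34 in Cm489 and -0.73 in F98902. The gene expA3 (LOC541905) was under 4 on both side B arrays and at least 4.999 higher on side A in Cm489 and at least 1.41 higher in F98902. The gene expB7 (LOC542649) was at least 6.50 higher on side A in Cm489 and 1.03 higher in F98902. The gene expA4 was higher on side B, at 10.21 and 10.98 against 8.86 and 5.74, while its 3 probe sets gave mean differences from -3.29 to -0.46. The gene expB8 (LOC542496) was lower on side A in F98902 alone (-4.71, against 0.34 in Cm489), and its 2 probe sets disagreed, at -2.19 and 0.25.

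Aquaporins were mostly higher on side A, where 10 of 21 tested genes passed 1 in both lines, against 13.4% of named genes. On side B 1 passed, against 7.15%, and the list median was 1.24. NIP2-2 (LOC541884) ranked first among named genes higher on side A by the smaller of both within-line differences, at 12.83 and 13.50 on side A and 7.21 and 6.002 on side B. The NIP2 group of grasses includes channels for silicic acid. Its members NIP2-1 (LOC542643) and NIP2-3 (LOC542497) differed by 3.33 and 2.44, and by 2.02 and 3.15. NIP1-1 (LOC542741), of another NIP group, stood the other way, at 10.89 and 10.36 on side B, 7.98 on side A in Cm489 and under 4 on side A in F98902.

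All tested plasma membrane aquaporins of the list are given here, and 5 passed 1 in both lines, against 13.4% of named genes. PIP2-2 (LOC542644) differed by 3.27 in Cm489 and 1.21 in F98902, and PIP2-3 (LOC541889) by 3.03 and 0.75. PIP1-5 (LOC542014) differed by 2.33 in Cm489 and by at least 1.47 in F98902. PIP2-3 was thus short of 1 in F98902. PIP1-3 (LOC541886) was at 12.63 and 12.39 on side A and 11.42 and 9.88 on side B, and its 4 tested probe sets gave differences from 1.76 to 1.89. PIP2-1 (LOC541888) differed by 1.60 and 1.14 and PIP1-1 (LOC542434) by 0.85 and 1.57. The gene pip1-2 (LOC541779) differed by 1.26 and 1.22, and PIP2-4 (LOC541890) by -0.07 and -0.28. PIP2-6 (LOC541891) differed by 0.32 in Cm489 and was under 4 on both F98902 arrays. The vacuolar TIP1-1 (LOC541675) ran opposite ways, 1.78 in Cm489 and -1.78 in F98902, so its mean hides 2 differences of like size.

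Part of the replication machinery stood higher on side B. In the cell cycle and replication list none of 15 tested genes was higher on side A by at least 1 in both lines and 5 were higher on side B, against 7.15% of named genes. The list median was -0.99 in Cm489 and -0.40 in F98902, and the median of the mean difference, -0.98, was -0.18 with no filter on dim probe sets. The origin recognition gene orc2 (LOC541938) was at 5.51 and 6.14 on side B and under 4 on both side A arrays, at least 1.51 higher on side B in Cm489 and at least 2.14 in F98902. The gene orc1 (LOC541937) was at 6.76 and 8.88 on side B and 5.32 and 6.77 on side A, so that the sides overlapped narrowly.

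The clamp gene pcna1 (LOC542425) was at 9.52 and 9.44 on side B and 7.56 and 7.96 on side A. Its paralogue pcna2 (LOC542357) was at 9.33 and 6.69 against 6.28 and 5.33, and the helicase gene MCM6 (LOC542206) at 7.68 and 8.21 against 6.44 and 6.66. For all 3 both side B arrays lay above both side A arrays, as they did for 28.9% of tested probe sets. The same held for 52 of the 58 named genes past 1 towards side B. The recombinase gene rad51a (LOC541709), which repairs DNA breaks, was at 6.60 and 6.90 on side B and under 4 on both side A arrays.

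Not all genes of the list shared this. The origin recognition genes orc3 (LOC542751) and orc4 (LOC541939) did not pass 1, with -0.97 and -0.997 for orc3 and -0.99 and -0.37 for orc4. The cyclin-dependent kinase gene cdc2 (LOC542270) was between 9.86 and 10.66 on all arrays, RBR1 (LOC541651), the retinoblastoma-related gene, between 7.47 and 7.79, and the linker histone gene hon102 (LOC541964) was 1.53 and 0.36 higher on side A. The gene for the centromeric histone, cenH3 (LOC542500), differed by -3.04 in Cm489 and by -0.27 in F98902. The meristem homeobox gene kn1 (LOC542391) was higher on side A, at 11.26 and 10.72 against 9.94 and 9.27, while knox7 (LOC732756) differed by -0.63 and -0.81 and lg3 (LOC542487) by -1.24 and 0.13.

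Ribosomal protein genes showed small differences, with 9 of 14 lower on side A in both lines, against 279 of 811 named genes, and a median of -0.57. Of the 14 only rps21b (LOC542449) passed 1 towards side B and rpl29 (LOC541790) towards side A, against 7.15% and 13.4% of named genes. The gene rpp2a-3, which the list did not match, also passed 1 towards side B (-2.28 and -2.19). Chromatin genes numbered 18 of 32 lower on side A in both lines. The 2 past 1 in each direction were a share below the 13.4% and 7.15% of all named genes. Of those on side B, met5 was under 4 on both side A arrays. It was at least 0.61 higher on side B in Cm489 and at least 1.24 in F98902, so its bound in Cm489 is short of 1. The Polycomb gene mez2 (LOC542659) was 1.31 and 1.63 higher on side A, and the histone deacetylase gene hda110 (LOC541972) differed by -1.46 and -1.67.

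**Figure D3:**
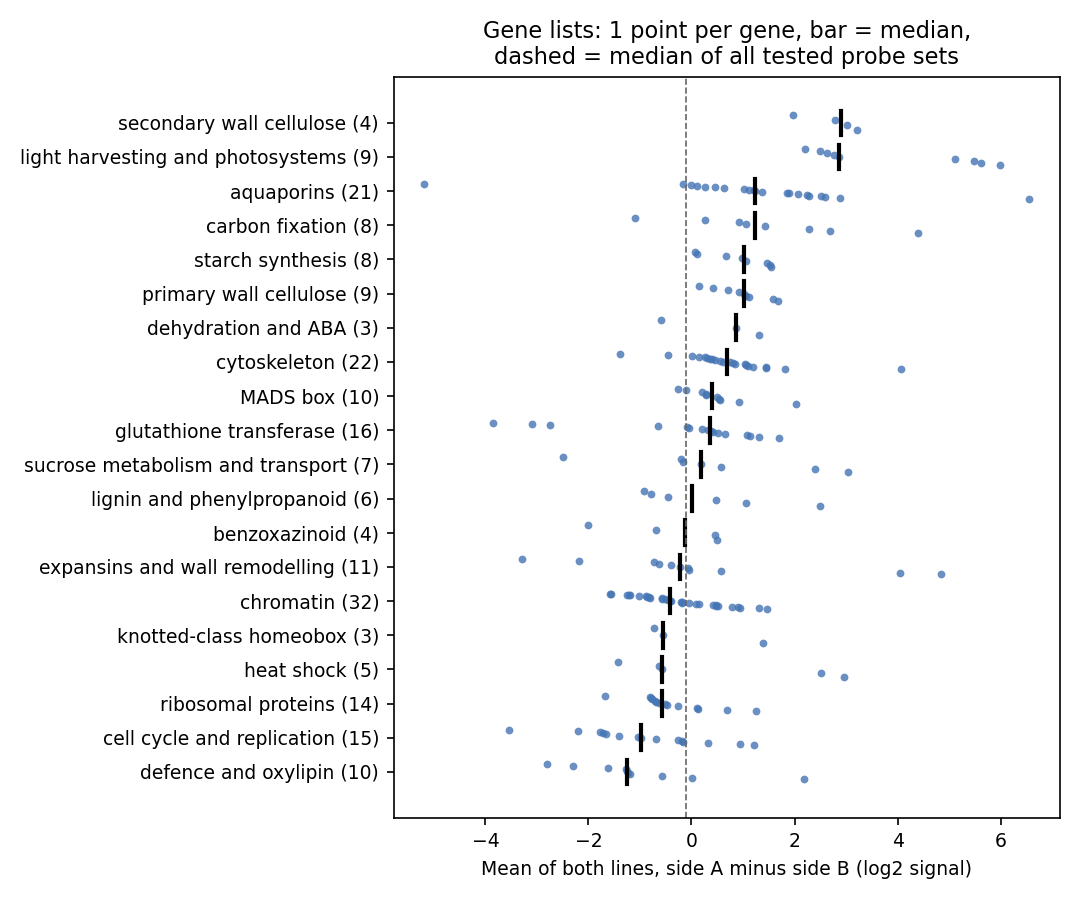
Side A minus side B, the mean of both lines in log2 signal (horizontal axis), for the 20 lists with at least 3 tested genes (vertical axis, number of genes in brackets). Each point is a gene, the bar is the list median and the dashed line the median of all tested probe sets at -0.10. Medians run from 2.90 for secondary wall cellulose to -1.24 for defence and oxylipin genes.

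The tested invertase genes, whose enzymes cleave sucrose, stood opposite ways. The soluble invertase gene ivr2 (LOC542324) was at 11.90 and 11.12 on side A and 9.16 and 7.80 on side B. The cell wall invertase gene incw1 (LOC542314) stood the other way, at 12.59 and 13.25 on side B and 10.50 and 10.36 on side A. The sucrose synthase gene sus1 (LOC542247) differed by 0.65 and 0.48, and sps1 (LOC542711), for sucrose-phosphate synthase, was higher on side A by 3.71 in Cm489 and under 4 on both F98902 arrays. The list of 7 had no common direction, with medians of 0.60 in Cm489 and -0.16 in F98902.

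MST1 (LOC542695), a monosaccharide transporter gene, ranked first towards side B by its brighter probe set, with a mean difference of -7.68, while its other probe set gave -2.49. It was at 9.60 and 12.06 on side B and under 4 on both side A arrays with a bound of at least 8.06 on the difference in F98902. In the starch list 7 of 8 genes were higher on side A in both lines, against 315 of 811 named genes. Of the 8, 3 passed 1 in each line, against 13.4% of named genes. The list median was 1.03, and 0.093 with no filter on dim probe sets. The gene AGP2 (LOC542737), for ADP-glucose pyrophosphorylase, was at 8.89 and 8.81 on side A and 7.71 and 7.06 on side B. GLG1 differed by 1.34 and 1.72.

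Further genes of the 15 named for side B are given with their known roles. The tryptophan synthase gene orp2 (LOC732803) was at 12.04 and 12.27 on side B and 10.04 and 8.67 on side A, and dps1 (LOC542379), for dihydrodipicolinate synthase of lysine synthesis, at 9.66 and 9.58 against 7.24 and 7.25. LON2 (LOC732810), a Lon protease gene, was at 9.54 and 9.87 against 6.83 and 7.58. The acidic ribosomal protein gene rpp2a-3 (LOC542338), which the ribosomal list did not match, differed by -2.28 and -2.19. For these 4 genes the sides did not overlap, as for 52 of the 58 named genes past 1 towards side B. Among all tested probe sets the share was 28.9%.

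Some of the other named genes higher on side B lay under 4 on 1 or both side A arrays. The gene LOC100037814 was at 12.80 and 13.65 on side B, 9.90 on side A in Cm489 and 4.46 on side A in F98902. The gene ptk1 (LOC542378) differed by -2.34 in Cm489 and was at least 5.27 higher on side B in F98902. The ABC transporter gene mrpa1 (LOC100037760) differed by -2.46 and was at least 4.91 higher on side B in F98902. SPP2 (LOC542661) was at least 2.44 higher on side B in F98902 and differed by -3.04 in Cm489. LOC542127 differed by -3.50 and -4.42, and LOC542079 was under 4 on both side A arrays and at 7.74 and 6.97 on side B.

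Defence and oxylipin genes were lower on side A in both lines for 7 of 10 tested genes, against 279 of 811 named genes. By at least 1 in each line it was 2 of 10, against 7.15% of named genes. The list medians were -0.41 in Cm489 and -1.96 in F98902. The lipoxygenase gene lox3 was at 12.85 and 13.03 on side B, 11.26 on side A in Cm489 and 9.01 on side A in F98902. The jasmonate synthesis gene aos1 was between 13.64 and 13.66 on the 2 Cm489 arrays and on F98902 replicate 2, and at 10.43 on F98902 replicate 1. The gene opr3, of the oxophytodienoate reductase family, differed by -0.55 in Cm489 and was under 4 on F98902 replicate 1, while opr5 stood the other way with 0.84 and 3.51. For lox3, aos1 and opr3 the lowest array was F98902 replicate 1.

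Of 16 tested glutathione transferases 6 had opposite signs in the lines, against 217 of 811 named genes. The gene gst42 (LOC541850) was at 9.82 on F98902 replicate 2, at 4.17 on Cm489 replicate 1 and under 4 on both side A arrays. The gene gst7 (LOC542587) was under 4 on F98902 replicate 1 alone, at 9.06 on F98902 replicate 2, and differed by -0.41 in Cm489. Benzoxazinoid genes, of maize chemical defence, showed the clearest opposition in bx1 (LOC542117), at 8.14 and 5.14 on Cm489 replicates 1 and 2 and at 11.64 and 7.75 on F98902 replicates 1 and 2. The beta-glucosidase gene glu1 (LOC542414), which releases the active compounds, was higher on side B in both lines, at 13.66 and 11.16 against 11.58 and 9.22. Whether the lines differ in these differences was not tested.

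Of 5 tested heat shock genes 2 were higher on side A by at least 1 in both lines, against 13.4% of named genes. The other 3 were lower there in both lines, and the list median of -0.56 turned to 0.72 with no filter on dim probe sets. The chaperone gene hsp101 (LOC541780) differed by 1.03 and 4.01 and the small heat shock gene hsp18a (LOC542293) by 1.51 and 4.40. The mitochondrial chaperonin gene CPN60I (LOC542736) stood the other way with -1.96 and -0.91. Among cytoskeleton genes 17 of 22 were higher on side A in both lines, against 315 of 811 named genes, with a median of 0.68 (0.45 with no filter on dim probe sets). The 3 of 22 that passed 1 in both lines were near the 13.4% of all named genes. The small GTPase gene rop5 (LOC542758) was at 7.52 and 5.53 on side A and under 4 on both side B arrays, and the tubulin gene TUBB2 differed by 1.59 and 2.03.

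Genes of signalling and stress factors were also among the 15. The cytokinin response regulator gene crr1 (LOC541613) was at least 2.30 higher in Cm489 and 4.10 higher in F98902. The DRE-binding factor gene dbf2 (LOC541957) was at 7.69 and 7.26 on side A and 4.13 and 4.12 on side B. The isoflavone reductase-like gene irl1 (LOC542717) differed by 5.36 and 4.36. The remaining genes among the 15 were LOC100101510 (5.98 and 4.00), LOC606403 (3.35 and 3.30) and GR2b (LOC100037738), at 7.53 and 10.16 on side A.

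Many listed markers of other organs were too dim to test. Of 10 tested MADS box genes, some of which set floral organ identity, 7 were higher on side A in both lines, against 315 of 811 named genes. MADS15 (LOC542032) alone was higher there by at least 1 in each, where 13.4% of named genes were. It was at 9.78 and 11.07 on side A against 7.99 and 8.81 on side B. A further 20 annotated genes of the MADS box list were too dim to test. The tunicate gene zmm19 (LOC542033) was between 12.54 and 13.39 on all arrays. The pollen list had 1 tested gene, TUA1 (LOC100037751), which ran opposite ways (0.65 and -0.63). In the kernel storage list 2 genes were tested, the zein gene gz27 (2.90 and 1.65) and meg6 (-0.22 and -0.72), and 22 annotated genes were too dim to test. The single tested anthocyanin gene a2 (LOC606406) differed by -0.26 and -3.63. Of 3 tested genes of dehydration and ABA none passed 1 in both lines, with asr1 (LOC542304) at 2.85 and -0.23, vp14 (LOC732819) at 1.77 and -0.05 and dhn2 (LOC542251) at -0.23 and -0.93.

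Of 4 transcripts used to judge RNA quality, 2 differed between the sides in both lines. The 5' minus 3' signal of cyclophilin was -1.02 and -0.83 on side A and -1.61 and -1.65 on side B, and that of GAPDH -3.27 and -2.02 against -4.10 and -3.65. For both transcripts the sides did not overlap, and the 5' end was brighter on side A in both lines. Ubiquitin differed by 0.05 in Cm489 and -0.24 in F98902. EF1-alpha ran opposite ways, -1.02 in Cm489 and 1.10 in F98902.

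The 18S rRNA control was 0.69 higher on side A in Cm489 and 1.41 in F98902, and the median difference of the bacterial hybridisation spikes was 0.23 and 0.35. Labelled RNA amounts were 100 and 102 ug on side A (Cm489 and F98902) and 52 ug for F98902 on side B. That of the fourth array was not used, because its extraction note cites a different sample. Amount can thus be compared in F98902 alone. The part of RNA quality and amount in the differences above was not tested, and organ, position, plant age and RNA handling cannot be told apart by this design. In bulk samples fewer cells of a type and less RNA per cell cannot be told apart either.

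**Figure D4:**
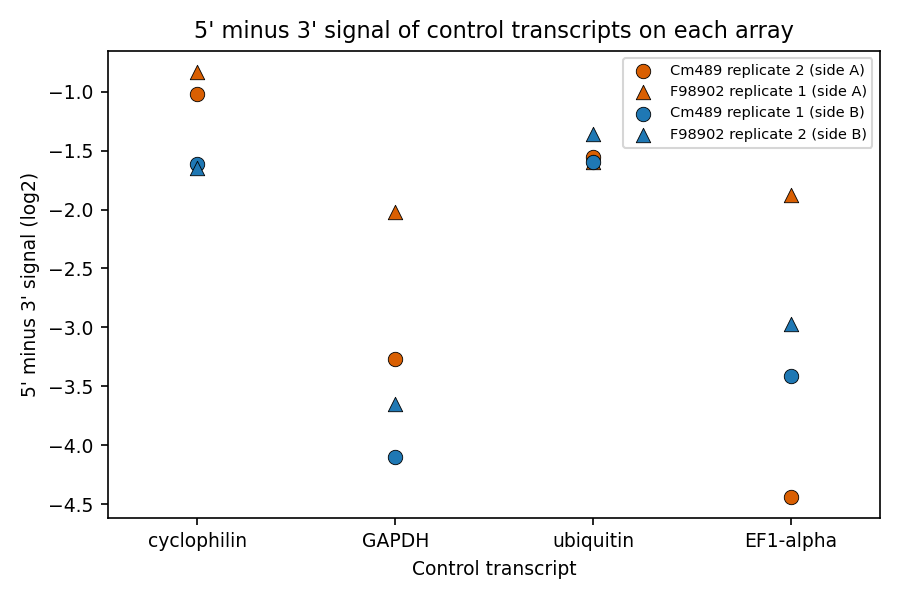
The 5' minus 3' signal in log2 (vertical axis) of 4 control transcripts (horizontal axis) on each array. Orange points are side A, blue points side B, circles Cm489 and triangles F98902. Cyclophilin and GAPDH are higher on both side A arrays than on both side B arrays, ubiquitin is not, and EF1-alpha separates the lines.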

How the data were processed

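The authors deposited 1 log2 signal per probe set and array, made with GCRMA per the submitters' processing notes (its version is not given here). Base 2 was inferred from the range of values, 1.18 to 15.28. Of 17734 probe sets 113 AFFX controls were set apart, leaving 17621. A probe set was tested, meaning counted, when it was at least 4 on at least 2 arrays (second highest values nearest this limit were 4.00032 and 3.99979), which 11242 passed. The smaller within-line differences nearest the limit of 1 were 1.00024 and 0.999917 on side A and -1.00018 and -0.998629 on side B.

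Gene names came from GEO's platform annotation, updated by Entrez number to RefSeq (Zm-B73-REFERENCE-NAM-5.0): 1452 probe sets had 1 gene, 1 several and 16168 none, and 1377 matched RefSeq. Each gene took its probe set with the highest mean. Of 12 genes that passed and had several tested probe sets, all probe sets ran the same way in 10; asn1 and por1 disagreed.

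Members, lists and rules were chosen with earlier results of these data known. The 23 lists were matched by symbol (planned matches by gene description could not be made), and 26 matches that share only a symbol were left out after values had been seen. Genes named are the 15 per direction with the largest smaller-of-both within-line difference (ranked on deposited values, those under 4 included, so genes near the floor can outrank genes with larger bounds), all secondary wall genes, up to 4 of each other list with 3 or more tested genes and up to 2 of smaller lists; others (psbs1, PSBQ1, psan1, psah1, psad1, pep4, Ppdk1, me3, PAL1, myb31, PIP genes, TIP1-1, MCM6, orc3, orc4, cdc2, RBR1, hon102, cenH3) were picked with their values known, as was the EF1-alpha probe set. No test was made between the sides, so no p-value is given. The number of arrays limits the precision. Counting was tested on simulated data. Python 3.11.15, numpy 2.4.6 and pandas 2.3.3 were used. The closing section gives the effect of the alternatives: other filters, scalings and thresholds, and leaving out each array.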

Additional observations from a re-analysis of the deposited data

How the results depend on the processing

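No paired analysis was possible because replicate numbers enter no test here; each difference is already taken within a line. The counts of 1030 and 995 probe sets were 361 and 182 at a difference of 2 and stayed within 1.5 times under the other filters, both scalings and the raised floor. Leaving out 1 array leaves only the other line, with 1751 to 2080 for side A and 1950 to 2221 for side B. With no dim filter the medians were 0.47 (lignin), 1.42 (carbon fixation), 0.95 (aquaporins), -0.18 (cell cycle), 0.0102 (MADS box), 0.0930 (starch), 0.45 (cytoskeleton), 0.00516 (expansins, turned) and 0.72 (heat shock, turned). With a filter at 6 they were 3.99 (light harvesting), 1.42 (carbon fixation), 0.29 (MADS box), 0.61 (cytoskeleton) and -0.20 (chromatin). With 4 on all 4 arrays they were 3.99 (light harvesting), 1.05 (carbon fixation) and 0.61 (cytoskeleton). With all probe sets they were 5.12 (light harvesting), 0.93 (carbon fixation), 1.76 (aquaporins), 0.29 (MADS box) and 0.45 (benzoxazinoids, turned). Quantile normalization gave 0.36 for MADS box genes, and keeping every symbol match, chosen after seeing the data, 0.21. The sucrose median, 0.18, was 0.00777 with no filter and 0.00516 with a filter at 6. The cause was not tested.

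With 1 array left out, medians ran from -0.73 to 0.34 (expansins), -0.63 to 0.13 (knotted-class), -1.46 to 0.47 (benzoxazinoids), -0.16 to 0.60 (sucrose), -0.23 to 1.77 (dehydration) and -0.14 to 0.66 (glutathione transferases), each with a turn. With no turn, they ran from 0.0635 to 0.55 (lignin), 2.76 to 4.05 (light harvesting), 1.29 to 1.42 (carbon fixation), 1.21 to 1.57 (aquaporins), -0.99 to -0.40 (cell cycle), 0.41 to 0.42 (MADS box) -0.44 to -0.30 (chromatin), -1.96 to -0.41 (defence), -0.80 to -0.42 (ribosomal), 0.70 to 1.32 (starch), -0.65 to -0.39 (heat shock), 0.65 to 0.75 (cytoskeleton), 0.97 to 1.08 (primary wall) and 2.23 to 3.49 (secondary wall). Genes that turned were those with opposite signs in the lines: expB8 ran from -4.71 (without a Cm489 array) to 0.34 (without an F98902 array), bx6 from -0.51 (without an F98902 array) to 1.49, bx1 from -2.996 (without an F98902 array) to 3.89, lg3 from -1.24 to 0.13 (without a Cm489 array), and asr1, vp14 and TUA1 from -0.23, -0.0487 and -0.63 (without a Cm489 array) to 2.85, 1.77 and 0.65.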
